A study of Mus musculus with 6 samples.

Results

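The genes described here are 10 outputs of the ERK signalling pathway: the feedback inhibitors Spry1, Spry2, Spry4, Spred1 and Spred2, and the transcription factors Egr1, Egr2, Egr3, Etv4 and Etv5. They were chosen by name, as all probe sets with 1 of these symbols as the only symbol, which gave 10 of 18193 named genes and 30 of 45037 probe sets. The data are 6 Affymetrix mouse arrays of total RNA from cultured dermal fibroblasts, in 3 groups of 2, so that the small number of arrays sets the precision. The cells came from newborn mice aged 0 to 2 days, born to BL6 mothers and to fathers with an X-linked GFP transgene on a 129/ICR mixed background, in which the chicken β-actin promoter and a CMV enhancer drive GFP; the strain label is B6, and all cells were at passage 4. Per the descriptions of all 6 samples, the cells had first been sorted for absence of GFP, which among female cells leaves those with the transgene on the inactive X.

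Control cells were untreated and were not sorted again. Treated cells were cultured for 48 hours with 4 μM of the demethylating drug 5-aza-2'-deoxycytidine, and for a further 24 hours without it. The study's design text states that this drug leaves part of the cells unaffected. These cells were then sorted into GFP-positive cells, which had switched the silent transgene on, and cells that stayed GFP-negative. Treated and control cells thus differ by the drug and by the further sort, and these cannot be told apart. Within replicate 2 they differ by the deposited scale too, and this cannot be told apart from treatment there. The 2% trimmed mean as deposited was 62.0 for GFP-negative and 50.5 for GFP-positive replicate 2, but 500.004 for control replicate 2. The labels of control replicate 2 give mixed sex, where the other 5 samples are female, and lack the sort entry that reads unsorted for control replicate 1. Male cells have no inactive X and receive no X-linked transgene from the father, so the sort for absence of GFP would keep them. Every difference from control rests partly on this array. The labels call the replicates biological but do not say whether they came from separate cultures or litters. The SE and p-values here cover only the spread between these arrays, which may be technical. For each gene that spread is drawn largely from other probe sets of like brightness (8.99 prior against 2 residual degrees of freedom). An SE can therefore be small where a gene's own 2 replicates differ widely.

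ERK, the last kinase of the RAS-RAF-MEK-ERK cascade, carries signals from growth factor receptors to the nucleus. There it drives immediate-early genes such as those of the Egr zinc-finger factors, through ternary complex factors and serum response factor, and somewhat later genes such as Etv4 and Etv5, ETS factors of the PEA3 group that are widely used as readouts of FGF signalling. The Sprouty and Spred proteins are induced by the same signals and act back on RAS and RAF, so they are read both as outputs and as brakes of the pathway. In fibroblasts the pathway is engaged mainly by serum and by platelet-derived and fibroblast growth factors.

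Values are signals scaled so that each array has a 2% trimmed mean of 500, and differences are given as log2 with a standard error (SE), taken after 30.6 was added to each signal, which understates changes of dim probe sets. Scaled signals had a lower quartile of 38.7 to 42.5 on the replicate 1 arrays and of 19.2 to 22.6 on the replicate 2 arrays, and each number holds 1 array of each group. The groups were compared within replicate numbers, by limma with the replicate number as a block. The block was chosen with earlier results of these data known. A gene is said to have risen or fallen where its adjusted p was under 0.05. Each gene is represented by its probe set of highest mean signal. For all 10 genes this probe set was bright enough to be tested, as were 24 of the 30 probe sets, of 27022 tested in all. Of the 24, only the dimmer Etv4 probe set reached the filter through the treated arrays and not in control alone. All 10 fibroblast markers, Col1a1 and Pdgfra among them, were bright enough to pass the filter. Markers of several other cell types passed in part. They were 4 of 7 for keratinocytes (Krt14 below), 4 of 6 for leukocytes (Ptprc below) and 4 of 6 for endothelial cells (Pecam1 below). For melanocytes 3 of 6 passed (Dct below) and for skeletal muscle 4 of 6 (Myog below). Among these markers, the actin gene Acta1 was at 4084 and 9193 in control, and the leukocyte marker Csf1r at 546 and 539. All 5 smooth muscle markers and all 4 measured Schwann cell markers passed. In control the smooth muscle markers Acta2 (38437 and 55288), Tagln (23475 and 34545) and Cnn1 (7280 and 11941) were bright. The other smooth muscle markers, Myh11 (408 and 816) and Lmod1 (760 and 351), were dimmer.

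In GFP-positive cells 6 of the 10 genes differed from control, and they did not move as 1 group. Spry1 and Spry2 fell, while Spry4, Egr1, Egr2 and Etv4 rose. Of the 13223 genes tested, 7.77 percent differed in either direction, 3.97 percent were higher and 3.8 percent lower. Etv5, Spred1, Spred2 and Egr3 did not pass the test. By probe set, 7 of the 24 tested were called, 5 higher and 2 lower, against 6.21 percent of all probe sets. The arrays of the 2 groups did not overlap for 9 of the 10 genes, 5 higher and 4 lower, where 34.7 percent of all genes tested did not overlap (19.1 percent higher, 15.7 percent lower). The 6 differences kept their sign under each of the 18 alternative settings tried. None was called by limma without the block (adjusted p from 0.395 to 0.801), where 0.151 percent of all genes were. At an unadjusted p under 0.05 there were then 4 of the 10, against 8.58 percent of all genes. None was called without the mean-variance trend either (adjusted p from 0.176 to 0.258), where 0.0303 percent of all genes were. Unadjusted there were then 6 of the 10, against 17 percent of all genes. Calls that were lost when single arrays were left out are given with each gene.

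**Figure D1:**
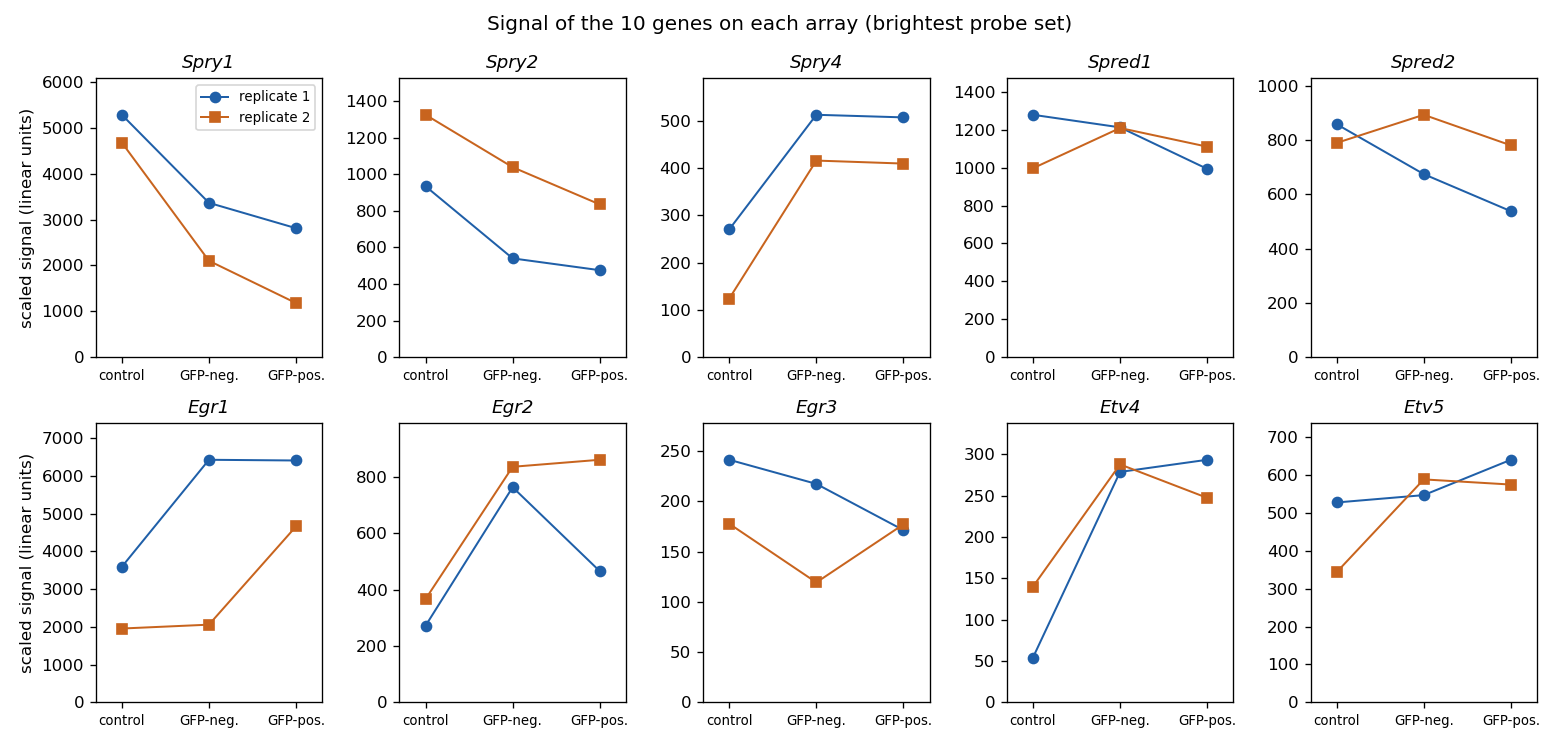
Scaled signal, in linear units from 0, of the brightest probe set of each of the 10 genes on the 6 arrays; the x axis gives the group, and lines join the 3 arrays of a replicate number (circles 1, squares 2). Spry1 falls from 5280.3 and 4674 in control to 2811 and 1181 in GFP-positive cells, whereas Spry4 and Etv4 are higher on all 4 treated arrays than on either control array.

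Spry1, a membrane-associated inhibitor of receptor tyrosine kinase signalling, had a signal of 5280.3 in control replicate 1 and 4674 in control replicate 2. It was 3364 and 2102 in the GFP-negative replicates and 2811 and 1181 in the GFP-positive ones. All 4 treated arrays were below both control arrays, and within each replicate number the order was control, GFP-negative, GFP-positive. In GFP-positive cells Spry1 fell by 1.43 ± 0.21 (SE) on the log2 scale, to 0.371 times the control value of signal plus 30.6. The replicates taken singly gave -0.90 and -1.96 (adjusted p = 0.00218, or 0.395 without the block). Without the trend the SE was 0.30 (adjusted p = 0.176). It was still called without any 1 of the 6 arrays. In bulk samples such as these, fewer cells expressing a gene and less RNA per cell cannot be told apart.

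Spry2, another Sprouty inhibitor of receptor tyrosine kinase signalling, was at 934 and 1325 in control, 540.4 and 1038 in GFP-negative and 476 and 835 in GFP-positive cells. The replicate 2 arrays were the higher ones in every group, and the same order of groups as for Spry1 was seen within both replicate numbers. Against control, Spry2 fell in GFP-positive cells by 0.79 ± 0.18 (-0.93 and -0.65; adjusted p = 0.0282, or 0.801 without the block). The call was lost without control replicate 1 (-0.61, adjusted p = 0.139), replicate 1 of the GFP-positive cells (-0.75, 0.138) or their replicate 2 (-0.83, 0.162). The other Spry2 probe set was dim, from 7.92 to 119 over the arrays, and was not tested; with the mean of both probe sets the difference was -0.48 (adjusted p = 0.567).

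The promoters of Spry1 and Spry2 are shown because both genes fell after a drug that lowers DNA methylation. The sequences are from RefSeq (GRCm38.p6) and give the 250 bases before the start site, 5′ to 3′, for Spry1 at chr3:37639697-37639946 on the plus strand and for Spry2 at chr14:105896820-105897069 on the minus strand. Capitals mark CpG, the dinucleotide that DNA methyltransferases act on; methylation itself was not analysed here.
Spry1: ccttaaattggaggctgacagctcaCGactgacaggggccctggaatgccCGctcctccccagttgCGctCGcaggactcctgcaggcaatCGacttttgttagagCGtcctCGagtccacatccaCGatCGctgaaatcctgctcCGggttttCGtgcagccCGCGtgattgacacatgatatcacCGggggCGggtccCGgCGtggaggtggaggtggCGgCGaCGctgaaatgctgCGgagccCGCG
Spry2: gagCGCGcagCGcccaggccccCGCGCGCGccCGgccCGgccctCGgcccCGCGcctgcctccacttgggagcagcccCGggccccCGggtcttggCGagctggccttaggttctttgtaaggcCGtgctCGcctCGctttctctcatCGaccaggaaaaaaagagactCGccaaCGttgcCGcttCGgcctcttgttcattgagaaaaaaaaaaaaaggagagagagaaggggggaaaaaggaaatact
Both stretches hold 23 CpG. In the full window of 300 bases, which reaches 50 bases past the start, Spry1 has 29 and Spry2 has 28, against a median of 7 over 32851 such windows; 12.9 and 14.2 percent of windows have at least as many. A window was at hand for 6 of the 10 genes, and those of Spred1, Spred2, Egr2 and Etv5 hold between 16 and 40 CpG, so genes that fell, rose or did not pass the test all have windows above the median.

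Spry4, a further Sprouty gene induced by FGF signalling, went the other way. Its signal was 271 and 124 in control, 513 and 416 in GFP-negative and 507 and 409.7 in GFP-positive cells. The 2 treated groups were close to each other within each replicate number, and both lay above both control arrays. In GFP-positive cells Spry4 rose by 1.17 ± 0.25 (0.84 and 1.51; adjusted p = 0.02, or 0.498 without the block), to 2.25 times the control value of signal plus 30.6. The call was lost without control replicate 2 (0.84, adjusted p = 0.128), GFP-positive replicate 1 (1.34, 0.0727) or GFP-positive replicate 2 (1.01, 0.243). Its other tested probe set was at 217 and 116 in control and 303 and 134 in GFP-positive cells (0.29 ± 0.29, adjusted p = 0.63), the remaining 2 were below the filter, and the mean of all 4 gave 0.69 (adjusted p = 0.184).

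Spred1 and Spred2 are Sprouty-related inhibitors that act with neurofibromin on RAS, and neither passed the test. Spred1 was at 1278 and 996 in control, 1212 and 1208 in GFP-negative and 993 and 1110.2 in GFP-positive cells, so that each treated group overlapped control. The difference between GFP-positive and control cells was -0.10 ± 0.18, with a 95% interval from -0.49 to 0.28. Its 7 tested probe sets lay between -0.70 and 0.20, with a lowest adjusted p of 0.323, and 4 of them are of the s_at or x_at types, which can bind more than 1 transcript. Spred2 was at 858 and 789.7 in control, 675 and 893 in GFP-negative and 538 and 781 in GFP-positive cells, a difference of -0.33 ± 0.20 (interval -0.77 to 0.11; -0.64 within replicate 1 and -0.02 within replicate 2). All 3 tested Spred2 probe sets had negative differences, from -0.49 to -0.20, and none passed the test (lowest adjusted p = 0.254).

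Egr1, an immediate-early zinc-finger factor, was at 3594 and 1957 in control, 6432 and 2059.8 in GFP-negative and 6413 and 4665 in GFP-positive cells. In replicate 1 both treated arrays were high; in replicate 2 GFP-negative cells stayed near control and only GFP-positive cells were high. Against control, Egr1 rose in GFP-positive cells by 1.03 ± 0.22 (0.83 and 1.24; adjusted p = 0.0187, or 0.799 without the block). Without GFP-positive replicate 2 it was at 0.64 and was not called (adjusted p = 0.289), and in a fit on means of probe sets per gene its adjusted p was 0.0551.

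Egr2, a relative of Egr1 also known from hindbrain and myelinating Schwann cells, was at 272 and 367 in control, 763 and 836 in GFP-negative and 466 and 861 in GFP-positive cells. All 4 treated arrays lay above both controls. In GFP-positive cells Egr2 rose by 0.94 ± 0.22 (0.71 and 1.17; adjusted p = 0.0299, or 0.574 without the block), and on its other probe set, from 134 and 164 to 642 and 362, by 1.52 ± 0.37 (adjusted p = 0.0334). The call was lost without control replicate 2 (0.89, adjusted p = 0.0839), without GFP-positive replicate 2 (0.65, 0.383) or with no filter (0.0511). The summed signal of 4 measured Schwann cell markers was 1701 and 2960.1 in control and 1706 to 2001 on the treated arrays, and none of the 4 was called.

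Egr2 is the only 1 of the 6 genes with promoter windows in which a CArG box was found. This is the site of serum response factor, and it was searched on both strands by its name. It stood in 4 of the 5 Egr2 windows, at 2 places, and in 1.63 percent of all windows; a match is a description of the letters and not a measured site. The places are shown, with the CArG box in capitals, because serum response factor is the textbook route from ERK to Egr genes, at chr10:67537484-67537513 for box 1 and chr10:67537787-67537816 for box 2 (RefSeq, GRCm38.p6, plus strand).
Egr2 CArG box 1: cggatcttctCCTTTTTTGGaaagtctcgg
Egr2 CArG box 2: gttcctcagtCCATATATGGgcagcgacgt
The windows of Spry1, Spry2, Spred1, Spred2 and Etv5 held none. The ETS-type letters CCGGAA, searched on both strands, occurred in 1 Egr2 window and in the Spry2 window, and in 14.9 percent of all windows; GGAAGT occurred in the Spred2 window and 1 Etv5 window, and in 23.8 percent.

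Egr3, the third Egr gene of the set, did not pass the test. It was at 241 and 178 in control, 217 and 119 in GFP-negative and 171 and 177 in GFP-positive cells, a difference of -0.22 ± 0.32 between GFP-positive and control cells (interval -0.91 to 0.48). The lower control array and the higher GFP-positive array were nearly equal. Its other probe set ranged from 12.5 to 249 over the arrays, with the replicate 1 array the higher in every group.

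Etv4, a PEA3-group ETS factor, was dim in control, at 54.2 and 140.0, and was at 279 and 288 in GFP-negative and 293 and 247 in GFP-positive cells. All 4 treated arrays were above both controls, and the control arrays were the ones that differed most from each other. Etv4 rose in GFP-positive cells by 1.32 ± 0.34 (1.93 and 0.70; adjusted p = 0.0473, or 0.498 without the block). This was the weakest of the 6 calls. It was lost with a smaller offset (adjusted p = 0.0542), with no filter (0.117), with the mean of its probe sets (0.164), with median centring (0.0505), with quantile normalization (0.0717), without control replicate 1 (0.77, adjusted p = 0.214), and without either GFP-positive array (0.95 and 0.321 for replicate 1, 1.69 and 0.121 for replicate 2). The dimmer Etv4 probe set, which reached the filter only through the treated arrays, was at 25.4 and 72.6 in control and 155 and 88.1 in GFP-positive cells; its test was not called and is not read here.

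Etv5, its paralogue, was at 528 and 344 in control, 547 and 589 in GFP-negative and 640.3 and 575 in GFP-positive cells. The treated arrays lay above both controls, but the difference of 0.48 ± 0.22 in GFP-positive cells (0.27 and 0.69; interval -0.00 to 0.96) did not pass the test (adjusted p = 0.249). Its other probe sets were at 0.29 ± 0.27 and -0.05 ± 0.32.

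**Figure D2:**
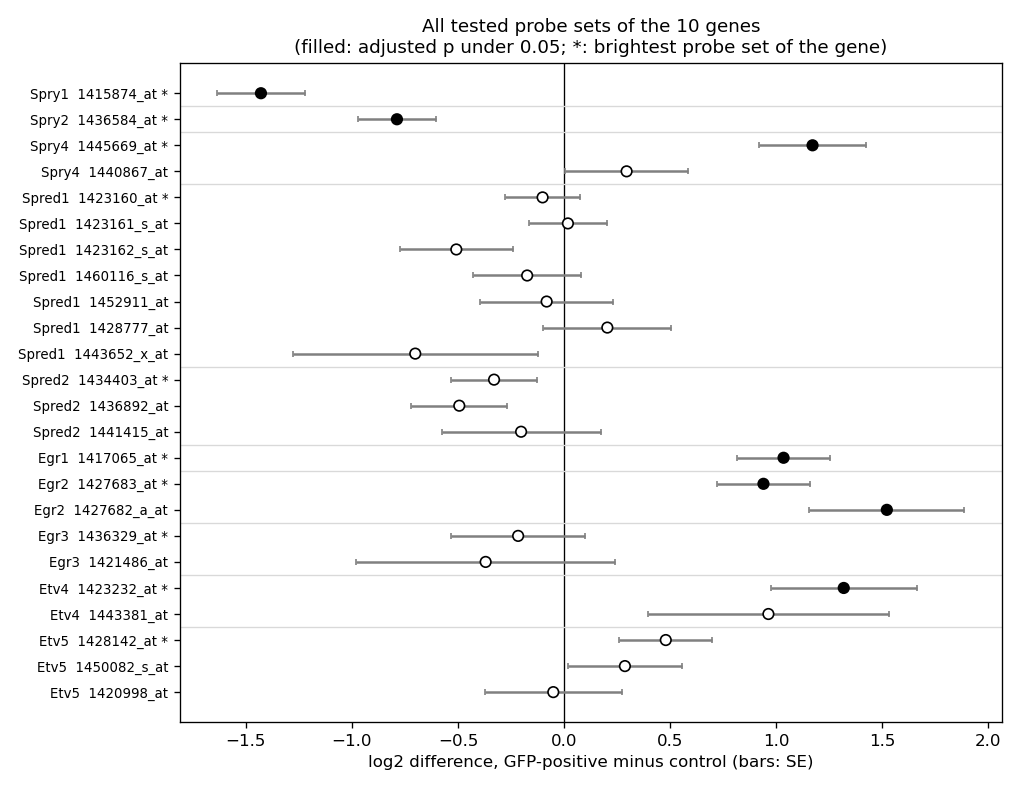
Log2 difference between GFP-positive and control cells (x axis, bars are SE) for the 24 tested probe sets of the 10 genes, with filled points for an adjusted p under 0.05 and an asterisk for the brightest probe set of a gene. Both Egr2 probe sets are called, 1 of 2 tested for Spry4 and for Etv4 (where the other reached the filter only through the treated arrays), and none of the 7 for Spred1.

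Treated cells in which GFP had stayed off were also set against control, on the same control arrays, to ask how these genes stood in them. Here 3 of the 10 genes were called, and 3 of the 24 probe sets where 3.57 percent of all were, against 4.53 percent of all genes tested (2.43 percent higher and 2.1 percent lower). Egr2 rose by 1.26 ± 0.22 (1.39 and 1.13 in the replicates; adjusted p = 0.00949) and, on its other probe set, was at 1.45 ± 0.37 (adjusted p = 0.0581). Spry4 rose by 1.19 ± 0.25 (0.85 and 1.53; adjusted p = 0.0271), and Spry1 fell by 0.89 ± 0.21 (-0.65 and -1.14; adjusted p = 0.0390). Etv4 was at 1.38 ± 0.34 (1.87 and 0.90) with an adjusted p of 0.0545, and Spry2 at -0.55 ± 0.18 (-0.76 and -0.34; adjusted p = 0.150). Egr1 was at 0.45 ± 0.22, with 0.83 within replicate 1 and 0.07 within replicate 2, Etv5 at 0.39 ± 0.22, Spred1 at 0.10 ± 0.18, Spred2 at -0.08 ± 0.20 and Egr3 at -0.30 ± 0.32. The arrays did not overlap for 5 genes, 4 higher and 1 lower, where 30.3 percent of all genes did not (16.3 percent higher, 14.1 percent lower).

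No gene kept its call in GFP-negative cells in limma without the block (adjusted p of 0.548 or more), where 0.0454 percent of all genes were called. At an unadjusted p under 0.05 there were then 3 of the 10, against 6.2 percent of all genes. No call was kept without the trend either (adjusted p from 0.211 to 0.341), where 0 percent of all genes were called. Unadjusted there were then 5 of the 10, against 13.6 percent of all genes. Without GFP-negative replicate 1 none was called. Spry1 lost its call there (adjusted p = 0.125), without GFP-negative replicate 2 (0.106) and without control replicate 2, where it was at -0.51 (0.224), as well as with a smaller offset (0.0504), with no filter (0.0739) and in the fit on means of probe sets (0.086). Spry4 lost it without GFP-negative replicate 1 (0.0644), GFP-negative replicate 2 (0.218) or control replicate 2 (0.146), with no filter (0.0575) and with the mean of its probe sets (0.57, adjusted p = 0.317). Among the single arrays, Egr2 lost its call only without GFP-negative replicate 1 (1.01, adjusted p = 0.122). Without GFP-negative replicate 2, Egr1 was at 0.94 and was called (adjusted p = 0.0219), while Etv4 was at 1.56 (0.142). Etv4 was called in GFP-negative cells under 1 of the 18 settings, without control replicate 2 (1.93, adjusted p = 0.00565).

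**Figure D3:**
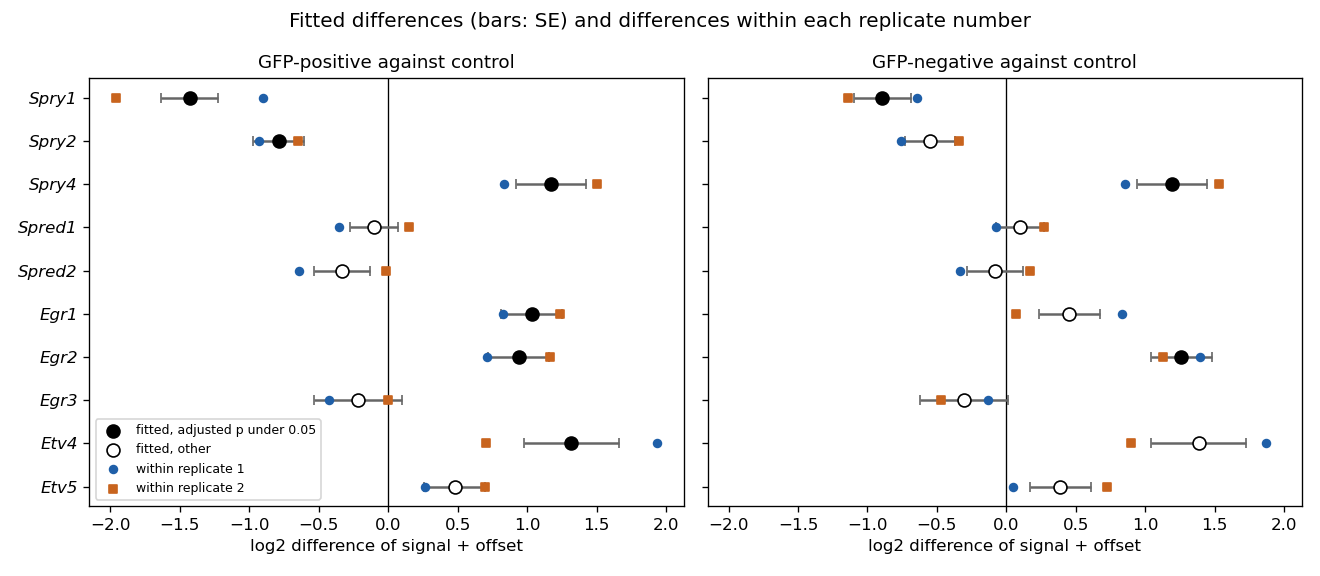
Log2 difference from control (x axis) of the brightest probe set of each gene in GFP-positive cells, left, and GFP-negative cells, right. Large circles with SE bars are fitted values, filled for an adjusted p under 0.05, and small symbols are the differences within each replicate number. Spry1 lies at -1.43 and -0.89 and Spry4 at 1.17 and 1.19 in the 2 panels, which share their control arrays.

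Setting the 2 sorted fractions against each other asked whether selection for an active transgene enriches for cells in which these genes had changed. No gene of the 10 was called by limma, and 0 percent of all 13223 genes were. At an unadjusted p under 0.05 there were 2 of the 10, Spry1 and Egr1, and 5.6 percent of all genes; without the block or without the trend there was none of the 10. The arrays of the fractions did not overlap for 1 gene, Spred1, which was lower in GFP-positive cells, where 20.7 percent of all genes did not (10.5 percent higher, 10.2 percent lower). Spry1 was at -0.54 ± 0.21 (interval -0.99 to -0.08; -0.26 and -0.82; adjusted p = 0.837) and Egr1 at 0.58 ± 0.22 (interval 0.10 to 1.07; -0.00 within replicate 1 and 1.17 within replicate 2; adjusted p = 0.837). For Spry4 the difference was -0.02 ± 0.25 with an interval from -0.57 to 0.54, for Etv4 -0.06 ± 0.34 (-0.82 to 0.69) and for Etv5 0.09 ± 0.22 (-0.39 to 0.57). Egr2 was at -0.32 ± 0.22 (-0.80 to 0.17) and Spry2 at -0.24 ± 0.18 (-0.64 to 0.16). These intervals include differences large enough that the sorted fractions cannot be said to be alike.

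The order of the group means was control, GFP-negative, GFP-positive for Spry1 and Spry2. For Spry1 control did not overlap with the GFP-negative group and the treated groups overlapped, while for Spry2 neighbouring groups overlapped. For Spry4, Egr2 and Etv4 the order was GFP-negative, GFP-positive, control, and for Etv5 GFP-positive, GFP-negative, control; in all 4 the treated groups overlapped each other and neither overlapped control. Egr1 was ordered GFP-positive, GFP-negative, control, with overlap at both steps. Spred2 had the order of Spry1, and Spred1 was ordered GFP-negative, control, GFP-positive, both with overlap at each step. Egr3 was ordered control, GFP-positive, GFP-negative, with overlap at the last step and arrays that nearly touched at the first.

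The genes around these outputs were described from lists drawn up by function. The lists were chosen with earlier results of these data known, so their counts are no independent test. Over all genes tested, 3.97 percent rose and 3.8 percent fell in GFP-positive cells, and 2.43 and 2.1 percent in GFP-negative cells. Among 25 other genes commonly induced by ERK, 24 were tested. In GFP-positive cells 14 of them rose and 1 fell, with a median difference of 0.73 where that of all genes was 0.04. The 6 of smallest p were Phlda1, a pleckstrin homology-like protein, which rose by 2.28 ± 0.15 (adjusted p = 1.45e-05), the EGF receptor ligand Hbegf (1.52 ± 0.13), the urokinase receptor Plaur (1.51 ± 0.15) and the MAP kinase phosphatases Dusp4 (1.80 ± 0.18), Dusp6 (1.28 ± 0.15) and Dusp5 (3.14 ± 0.38), with adjusted p from 6.3e-05 to 0.000632. The 1 that fell was Klf4, a Krüppel-like factor (-0.67 ± 0.15, adjusted p = 0.0217). In GFP-negative cells 11 rose and none fell, with a median of 0.74, and the same 6 genes had the smallest p (Phlda1 2.28 ± 0.15, Hbegf 1.77 ± 0.13, Dusp4 1.82 ± 0.18, Plaur 1.43 ± 0.15, Dusp5 3.19 ± 0.38 and Dusp6 1.29 ± 0.15). The 9 tested genes of the list that did not pass in GFP-positive cells lay between Nr4a1 at -0.56 ± 0.19 and Maff at 0.76 ± 0.22. The count called in GFP-positive cells was lower without GFP-positive replicate 2, and that in GFP-negative cells was lower without GFP-negative replicate 1. Fewer probe sets were called in all under both settings. Without the block 1 gene of the list, Phlda1, was called in each comparison (adjusted p = 0.0219 and 0.0386), where 0.151 and 0.0454 percent of all genes were. Without the trend 0 were called, where 0.0303 and 0 percent of all genes were.

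**Figure D4:**
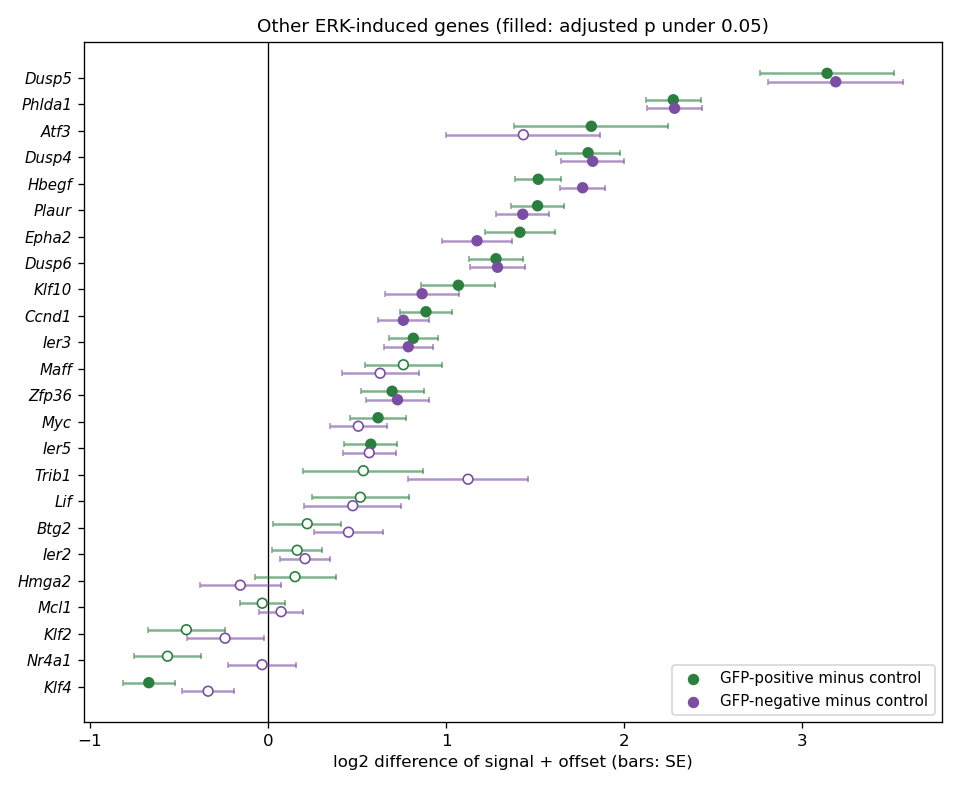
Log2 difference from control (x axis, bars are SE) of the 24 tested genes of the list of other ERK-induced genes in GFP-positive and GFP-negative cells, with filled points for an adjusted p under 0.05. Dusp5 stands highest at 3.14 and 3.19, and Klf4 is at -0.67 and -0.34.

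Most growth factor receptors and adaptors did not pass the test. Of 17 growth factor receptors and adaptors tested in GFP-positive cells, 3 fell and none rose: the platelet-derived growth factor receptors Pdgfra (-1.53 ± 0.22; -1.37 and -1.70; adjusted p = 0.00217) and Pdgfrb (-1.04 ± 0.16; -1.27 and -0.80; adjusted p = 0.00334) and the insulin-like growth factor receptor Igf1r (-0.93 ± 0.21; adjusted p = 0.0255). In GFP-negative cells Pdgfra fell by 1.30 ± 0.22 and Pdgfrb by 0.75 ± 0.16 (adjusted p = 0.00813 and 0.0272). The median of the list was -0.05 and 0.07 in the 2 comparisons. Over all genes tested, 3.97 percent rose and 3.8 percent fell in GFP-positive cells, and 2.43 and 2.1 percent in GFP-negative cells. Of 16 tested components of the RAS-RAF-MEK-ERK cascade none was called in either comparison, with medians of -0.05 and -0.04. Among 14 ETS and serum response factor genes, Ets1 rose by 0.87 ± 0.15 in GFP-positive and 0.93 ± 0.15 in GFP-negative cells (adjusted p = 0.00742 and 0.00692), and the coactivator of serum response factor Mrtfa rose by 0.59 ± 0.16 in GFP-positive cells (adjusted p = 0.0492). Serum response factor itself, Srf, was at 0.48 ± 0.16 in GFP-positive cells (adjusted p = 0.107). Of 3 tested relatives of the set, Spred3 and Nab1 did not pass the test, and Nab2, a corepressor that binds Egr proteins and is itself induced by them, fell in GFP-positive cells by 0.64 ± 0.16 (adjusted p = 0.0437). None of these calls held without the block or without the trend.

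Marker genes of the cells moved with these results, and their part in them was not tested. Over all genes tested, 3.97 and 2.43 percent rose and 3.8 and 2.1 percent fell in GFP-positive and in GFP-negative cells. Of 10 fibroblast markers 6 fell in GFP-positive and 5 in GFP-negative cells. Their summed signal was 203089 to 207050.0 in control, 157233 to 175643 in GFP-negative and 162890.0 to 162963 in GFP-positive cells. Bright genes weigh most in such a sum. In GFP-positive cells 8 of the 10 had negative and 2 positive differences. The largest falls were those of Dcn, from 12516 and 2957 to 1496 and 203 (-3.36 ± 0.20), and Lum, from 2320 and 934 to 291 and 93.0 (-2.92 ± 0.25). The 2 positive ones were Vim (0.18 ± 0.11) and Fn1 (0.13 ± 0.14). Pdgfra belongs to this list too. Of 6 skeletal muscle markers 4 were tested and 2 rose in both comparisons, Des and Acta1, with a sum of 4376 to 9466 in control and 13090 to 16658 on the treated arrays, while Myog and Myf5 were below the filter. Des, at 44.6 and 69.1 in control and 224 to 536 on the treated arrays, reached the filter only through the treated arrays, so its rise is no independent test. The summed signal of 6 leukocyte markers, 4 of them tested, was 708 to 1079 in control and 1300.4 to 1470.5 on the treated arrays, with Ptprc and Cd3e below the filter and none called. None of the tested keratinocyte, endothelial, melanocyte, Schwann cell or smooth muscle markers was called. None of the fibroblast and muscle calls was kept without the block, and none without the trend.

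As a description of likeness, log2 values were correlated over the 6 arrays after the mean of each replicate number was taken off, for the brightest gene of each family. The genes nearest to Spry1 were Mien1, Pigx and Foxn2 (r = 0.999 for each), those nearest to Egr1 were Kpna3 (r = 1.000), B3gnt2 (0.998) and Depdc7 (0.997), and those nearest to Etv5 were Pcbp3 (0.999), Plekhd1os and Pask (0.998 for each). With 6 arrays such values are common by the number of genes searched: 33, 13 and 20 genes lay above 0.99, and all points share the arrays and their scaling. A correlation takes no account of size. In GFP-positive cells against control, Mien1, Pigx and Foxn2 were at -0.16, -0.43 and -0.17, where Spry1 was at -1.43. Kpna3, B3gnt2 and Depdc7 were at 0.18, 0.59 and 1.01, where Egr1 was at 1.03. Pcbp3, Plekhd1os and Pask were at 0.57, 1.14 and 1.16, where Etv5 was at 0.48.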

How the data were processed

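Total RNA of 6 samples was measured on 1 array each. The deposited values are 1 signal intensity per probe set on a linear scale, which the authors computed with MAS5, per the submitters' processing notes. No version of it and no setting is given in the sources used here. Of 45101 probe sets 64 controls were left out. Gene names came from the platform's annotation.

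As deposited, 4 arrays had a 2% trimmed mean of 500.003 or 500.004, whereas replicate 2 of the GFP-negative cells had 62.0 and that of the GFP-positive cells 50.5. Each array was therefore scaled to 500, by factors of 8.06 and 9.90 for these. An offset of 30.6, the median of the arrays' 25th percentiles, was added before log2. Probe sets with a mean signal at or above the 40th percentile (67.7) were tested.

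All 6 arrays were fitted with limma 3.58.1 in R 4.3.3 (group plus replicate number, eBayes with a trend, 2 residual and 8.99 prior degrees of freedom, two-sided, Benjamini-Hochberg over 27022 probe sets, adjusted p under 0.05 called). Same-numbered arrays deviated together, with correlations of 0.513, 0.506 and 0.556 between groups; the numbers come from the labels, which do not state what a number shares. The genes named were all 10, up to 6 called genes of smallest p in each direction from each list, and the 3 of most like pattern per family. Further genes were named after their values were seen: those that failed the test (Nr4a1, Maff, Srf) and single markers. The members, lists and block were chosen with earlier results of these data known. Alternatives are given in the closing part. Promoter windows matched 6 of 10 genes; Spry4, Egr1, Egr3 and Etv4 had none in the table.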

Additional observations from a re-analysis of the deposited data

How the results depend on the processing

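The counts of called genes depended on the block and on the trend. With no replicate block, and likewise with no trend, 0 of the 10 genes were called in GFP-positive and 0 in GFP-negative cells, against 6 and 3 as reported. The count was also 0 in both with neither, a setting chosen after seeing the data, and 0 in both without both arrays of lower deposited scale and no replicate block. Averaging a gene's probe sets, 2 and 1 were called, and with no filter 4 and 1. Leaving out each array in turn gave 1 to 6 and 0 to 3. Without a treated array, fewer probe sets were also called in all in the comparison of its group with control. Without control replicate 1, more were called in all in both comparisons. With the other scalings, offsets, filter and only the groups compared the counts of the 10 genes were 5 or 6 and 2 or 3. In GFP-positive against GFP-negative cells 0 were called under every setting run. None of the called differences changed sign. The list counts without single arrays were added after seeing the data. The arrays' signal over background was not analysed here.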
